A study of Mus musculus with 10 samples.

Results

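Tumor necrosis factor (TNF) is an inflammatory cytokine made mainly by macrophages and lymphocytes, and it binds 2 receptors, TNFR1 (Tnfrsf1a), found on most cells, and TNFR2 (Tnfrsf1b), found mainly on leukocytes and endothelial cells. Receptor signaling frees the transcription factor NF-kB from its inhibitors: the canonical route releases the RELA and p50 (Nfkb1) subunits from IkB alpha, and the non-canonical route processes p100 (Nfkb2) so that it acts with RELB. NF-kB then switches on genes that restrain it, among them the inhibitor IkB alpha (Nfkbia) and the ubiquitin-editing enzyme A20 (Tnfaip3), as well as the ubiquitin ligase cIAP2 (Birc3). Those 10 genes (Tnf, Tnfrsf1a, Tnfrsf1b, Nfkb1, Nfkb2, Rela, Relb, Nfkbia, Tnfaip3 and Birc3) are described here. They were picked by name, with earlier results of these data known. All 10 were found among the 36009 genes of the count table and passed the filter on low counts.

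PolyA RNA was sequenced from 10 subcutaneous tumors of CT26, a single colorectal carcinoma line, grown in female wild-type BALB/c mice. Each library came from the piece removed at partial resection, when the mice were untreated. A hydrogel that releases poly(I:C), a synthetic double-stranded RNA, was then placed on the residual tumor, and the mice were classed by outcome as responders (n = 6), whose tumors regressed completely, or non-responders (n = 4), whose tumors grew without delay. The comparison asks whether the TNF and NF-kB genes already differed before treatment between tumors with these outcomes. Whole tissue was sequenced, so RNA of tumor and host cells is mixed, and the tumors are numbered within a group only to name them.

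The tumors held between 23374649 and 38042544 estimated counts. The markers fixed for the labelled cell type were close to absent, with Krt8, Krt18, Epcam and Vil1 too low to test and the 7 colon carcinoma markers summing to between 3.50 and 9.49 CPM (counts scaled to a common library size). Immune markers differed between the groups: Ptprc, the leukocyte antigen CD45, was 380.5 ± 63.1 CPM in responders and 250.6 ± 55.6 CPM in non-responders, with no overlap (log2 fold change 0.60 with SE 0.15, adjusted p = 0.0413 by edgeR). The 5 leukocyte markers summed to between 1010 and 1536 CPM in responders and between 641 and 935 CPM in non-responders (3 of 5 passed the test, all higher). The 10 macrophage markers summed to between 3167 and 4729 CPM in responders and between 2214 and 2962 CPM in non-responders (8 of 10 passed, all higher). The 6 NK cell markers summed to between 84.4 and 160 CPM against between 22.0 and 75.6 CPM (2 of 6 passed, both higher). The sums for 7 T cell markers, from 49.4 to 159 CPM and from 29.6 to 59.0 CPM, overlapped and none of the 7 passed. All 7 T cell estimates lay above 0, with a median log2 fold change of 0.86, close to the 0.96 of the NK cell markers. Of 5 skeletal muscle markers, 2 were higher, with sums of 348 to 1122 CPM against 308 to 402 CPM. None of the neutrophil, B cell, fibroblast, endothelial, adipocyte or keratinocyte markers that could be tested passed. All 4 adipocyte markers tested nevertheless had higher estimates (median log2 fold change 2.05, adjusted p from 0.0503 to 0.0701 by edgeR). The adipocyte sums were 15.7 to 52.1 CPM in responders and 8.54 to 19.2 CPM in non-responders. In bulk tissue, fewer cells of a type and less RNA per cell cannot be told apart.

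Promoter sequences are shown first, since NF-kB acts through short kB sites and several of the 10 genes are its own targets. Windows of 250 bases before a start site were taken from RefSeq (GRCm38.p6) for the 8 genes that the table held, with 11 windows in all (Nfkb1 and Relb were not matched). They were searched on both strands for the 9 letters GGNNTTTCC, present in 4.93% of the 32851 windows of all genes, and for the 10-letter NF-kB consensus, present in 7.25% of them. A match to one can overlap a match to the other. Matches lay in windows of 3 genes, Nfkbia, Tnfaip3 and Nfkb2, and none lay in those of Tnf, Tnfrsf1a, Tnfrsf1b, Rela or Birc3. The Nfkbia window, chr12:55492648-55492897 on the minus strand, is shown 5′ to 3′ because it held matches to both patterns, marked by capitals.
Nfkbia: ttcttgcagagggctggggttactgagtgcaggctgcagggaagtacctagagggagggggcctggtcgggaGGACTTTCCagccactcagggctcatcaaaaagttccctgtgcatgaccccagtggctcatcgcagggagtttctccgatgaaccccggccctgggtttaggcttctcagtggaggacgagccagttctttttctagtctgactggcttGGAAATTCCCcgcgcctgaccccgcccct
The first match started 178 bases and the second 29 bases before the start site. In Tnfaip3, of 3 separate matches, those shown began 24 and 12 bases before the start and the other 125 bases before it. In that window an annotated exon begins after the first 3 bases, ahead of all 3 matches. The other Tnfaip3 window held no match.
Tnfaip3, first match: GGAATTTCC
Tnfaip3, second match: GGAAATCCCC
In Nfkb2, each of the 3 windows held a match, and the one shown here began 225 bases before its start. An annotated exon begins after the first 16 bases of its window, ahead of the match. The other windows of Nfkb2 begin inside an annotated exon.
Nfkb2: GGGACTTTCC
A match is a description of the letters and not evidence of binding.

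None of the 10 genes passed the edgeR test at an adjusted p of 0.05 over the 16041 genes tested. Of all genes, 8.06% passed (4.71% higher and 3.35% lower in responders), a share at which 0 among 10 genes is not unusual. The estimates of Tnf, both receptors, Nfkbia, Tnfaip3 and Birc3 lay above 0. Those of the 4 subunits among the 10 genes lay slightly below 0, and no test compared these roles. At an unadjusted p under 0.05 the count was 4 of 10, all with higher estimates (Tnf, Tnfrsf1b, Nfkbia and Birc3), against 15.6% of all genes in that direction. At an adjusted p under 0.1 the count was 2 of 10 (Tnf and Tnfrsf1b), against 18.7% of all genes, a share like the background. No gene had responders entirely above non-responders, which 5.84% of all genes had. The median log2 fold change was 0.11 over the 10 genes and -0.01 over all genes. DESeq2 called 2 of the 10 as higher, Tnf (adjusted p = 0.0286) and Tnfrsf1b (adjusted p = 0.0256), against 16.7% of the genes to which it gave an adjusted p. By limma voom 0 of the 10 were called, and 685 of the 16041 genes.

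**Figure D1:**
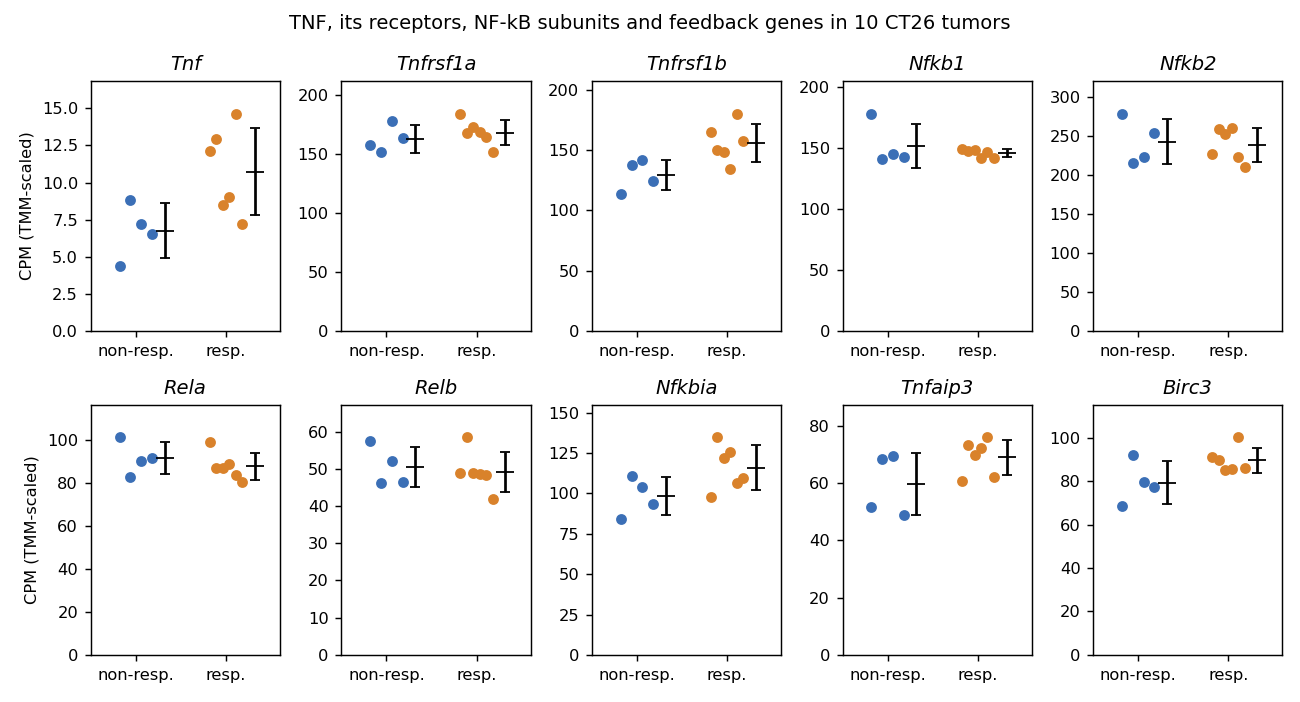
CPM of each of the 10 genes (vertical axes, from 0, with their own scale) in each tumor, non-responders (blue, n = 4) beside responders (orange, n = 6); black lines are the mean and SD. Every panel shows overlapping groups, and the widest separation by fold is that of Tnf, at 10.7 against 6.76 CPM.

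Tnf (chr17:35199381-35202007, GRCm38, as for all genes here), the ligand, was the least abundant and the most variable of the 10, with between 109 and 523 counts per tumor and a 3.33-fold range of CPM over the tumors. Its level was 7.20 CPM in the lowest responder, 10.6 at the median and 14.6 in the highest. In non-responders 1 to 4 it was 4.40, 8.85, 7.24 and 6.55 CPM. Of the 6 responders, 4 lay above all non-responders, and the other two lay within their range. The means were 10.7 ± 2.91 CPM (SD, n = 6) and 6.76 ± 1.84 CPM (SD, n = 4), which gave 0.67 as the log2 fold change (with SE 0.23, 95% interval 0.16 to 1.17, adjusted p = 0.0867 by edgeR). The difference did not pass the threshold.

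The receptors differed from each other in their estimates. Tnfrsf1b (chr4:145213463-145246870), which encodes TNFR2, was 134.1 CPM in the lowest responder, 154.0 at the median and 180.2 in the highest. In non-responders 1 to 4 it was 113.9, 137.7, 141.7 and 124.5 CPM. Responder 4 alone fell within the non-responder range, and the other 5 lay above it. The log2 fold change was 0.27 (with SE 0.08, 95% interval 0.08 to 0.45, adjusted p = 0.067 by edgeR), and without responder 4 it was called (adjusted p = 0.0338), where 1619 of all genes were called, but in none of the other 9 fits that left out a tumor (adjusted p up to 0.17). Tnfrsf1a (chr6:125349362-125362484), which encodes TNFR1, was 151.9 CPM in the lowest responder, 168.5 at the median and 184.4 in the highest, and it was 157.6, 151.8, 178.6 and 163.7 CPM in non-responders 1 to 4. The groups overlapped almost fully, with a log2 fold change of 0.05 (with SE 0.06, 95% interval -0.08 to 0.18, adjusted p = 0.636 by edgeR). The ratio of the receptors, which needs no scaling between libraries, tested their difference directly. The log2 ratio of Tnfrsf1b to Tnfrsf1a counts was -0.11 ± 0.18 in responders and -0.33 ± 0.14 in non-responders, a difference of 0.22 (exact permutation test, two-sided, p = 0.0762, 0.274 adjusted over 5 ratios). The receptors were thus not shown to differ in their change.

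The 4 subunits described here had nearly level means. A further subunit gene, Rel, is in the list of other pathway genes below and had a higher estimate that did not pass the test. Its log2 fold change was 0.23 (with SE 0.08, 95% interval 0.04 to 0.41, adjusted p = 0.104 by edgeR). For Rel, 5 of the 6 responders lay above all non-responders. Nfkb1 (chr3:135584655-135691547), which encodes p105 and p50, was 141.7 CPM in the lowest responder, 147.5 at the median and 149.1 in the highest. In non-responders 1 to 4 it was 178.4, 141.0, 145.0 and 143.2 CPM. The 6 responders spanned a narrow range (SD 3.24 CPM), and non-responder 1 stood apart from the other 9 tumors. The log2 fold change was -0.06 (with SE 0.06, 95% interval -0.19 to 0.08, adjusted p = 0.592 by edgeR), and without non-responder 1 it was 0.04. Rela (chr19:5637483-5648130), the main activating subunit, was 80.6, 86.8 and 99.2 CPM in the lowest, median and highest responder and 101.1, 82.8, 90.3 and 91.5 CPM in the non-responders, so all but non-responder 1 lay inside the responder range. Its log2 fold change was -0.06 (with SE 0.07, 95% interval -0.20 to 0.08, adjusted p = 0.578 by edgeR).

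Nfkb2 (chr19:46304320-46312385), the p100 precursor, was the most abundant of the 10 by CPM, at 209.9, 239.7 and 260.4 in the lowest, median and highest responder. In non-responders 1 to 4 it was 278.5, 215.3, 222.8 and 253.9 CPM, again with non-responder 1 the highest tumor (log2 fold change -0.02 with SE 0.09, 95% interval -0.21 to 0.16, adjusted p = 0.883 by edgeR). Its partner Relb (chr7:19606217-19629438) was 41.8, 48.7 and 58.4 CPM in responders and 57.4, 46.1, 52.1 and 46.5 CPM in non-responders (log2 fold change -0.04 with SE 0.09, 95% interval -0.23 to 0.16, adjusted p = 0.806 by edgeR). Its groups overlapped throughout. The intervals of the 4 subunits lay between -0.23 and 0.16, so changes larger than these in either direction fell outside them. The annotated spans of Nfkb1 and Nfkb2 overlap other genes (Gm43430, and AC114539.1 and Psd), with which they could share reads. The log2 ratios of non-canonical to canonical subunits were level as well, with differences of 0.03 for Nfkb2 to Nfkb1 (exact permutation test, p = 0.80) and 0.02 for Relb to Rela (exact permutation test, p = 0.857; both 0.857 after adjustment).

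The feedback genes had higher estimates that fell short of the threshold. Nfkbia (chr12:55489410-55492647), the inhibitor whose promoter is shown above, was 97.7, 115.8 and 134.8 CPM in the lowest, median and highest responder. In non-responders 1 to 4 it was 84.2, 111.0, 104.3 and 93.6 CPM, and 3 responders lay above them all. The means were 116.1 ± 13.8 and 98.3 ± 11.8 CPM, a log2 fold change of 0.24 (with SE 0.10, 95% interval 0.02 to 0.46, adjusted p = 0.134 by edgeR). Against its binding partner, the log2 ratio of Nfkbia to Rela was 0.40 ± 0.23 in responders and 0.10 ± 0.29 in non-responders, with 4 responders above every non-responder (difference 0.30, exact permutation test, two-sided, p = 0.11, 0.274 adjusted). The difference was 0.18 without non-responder 1 (exact permutation p = 0.286) and between 0.25 and 0.41 without any other tumor, and no adjusted p was under 0.0794, the value without responder 1 (exact permutation test, unadjusted p = 0.0159).

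Tnfaip3 (chr10:19000910-19015657), which encodes A20, was 60.7, 71.0 and 76.0 CPM in the lowest, median and highest responder. Non-responders 1 and 4 were at 51.6 and 49.0 CPM, below every responder, while non-responders 2 and 3, at 68.4 and 69.4 CPM, lay among them (log2 fold change 0.21 with SE 0.11, 95% interval -0.03 to 0.45, adjusted p = 0.219 by edgeR). Without non-responder 4 the log2 fold change was 0.13. Birc3 (chr9:7848699-7873186), which encodes cIAP2, was 85.0, 87.9 and 100.2 CPM in the lowest, median and highest responder. In non-responders 1 to 4 it was 68.5, 92.2, 79.6 and 77.1 CPM, so that 3 of them fell below all responders and non-responder 2 lay above all responders but 1. The log2 fold change was 0.18 (with SE 0.08, 95% interval 0.01 to 0.34, adjusted p = 0.151 by edgeR), and it passed the test without non-responder 2 (adjusted p = 0.0343), where 1897 of all genes passed in place of 1293, but in none of the other 9 fits that left out a tumor (adjusted p up to 0.359). Its close paralog Birc2, which encodes cIAP1 and may share reads with it, had a log2 fold change of 0.14 (with SE 0.10, adjusted p = 0.38 by edgeR), and the ratio of Birc3 to Birc2 differed by 0.03 (exact permutation test, p = 0.69).

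**Figure D2:**
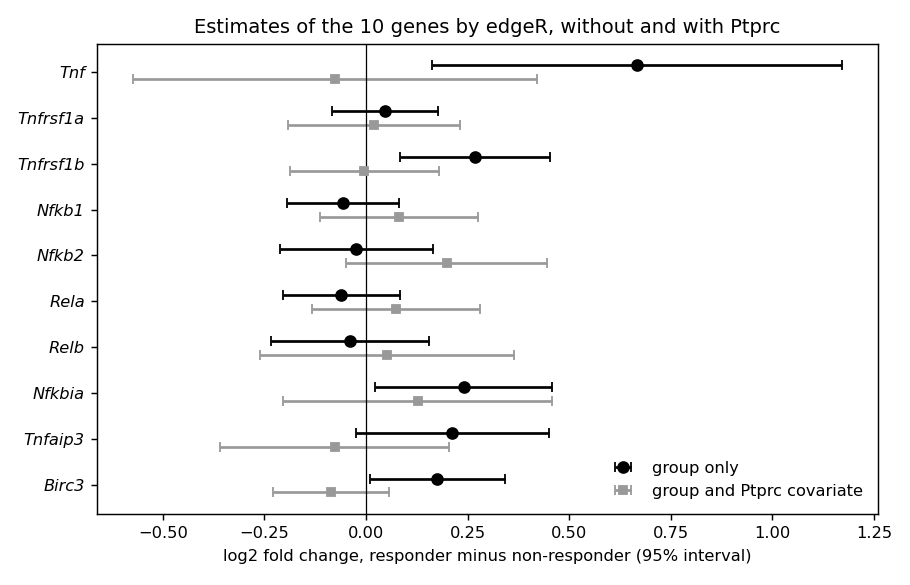
Log2 fold change (horizontal axis, responder minus non-responder) of each gene with its 95% interval, from edgeR with the group alone (black) and with Ptprc as a covariate (gray). Without the covariate the intervals of Tnf, Tnfrsf1b, Nfkbia and Birc3 lie above 0, and with it every interval spans 0.

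Between genes, levels were compared per kilobase of the longest annotated coding transcript. In responders the order of mean levels, in CPM per kilobase, was Tnfrsf1a (78.1), Nfkbia (73.6), Nfkb2 (62.1), Tnfrsf1b (40.8), Nfkb1 (35.5), Rela (32.3), Birc3 (30.8), Relb (22.2), Tnfaip3 (15.6) and Tnf (6.55). The ranges over tumors overlapped between neighbors for the first 3 genes and from Tnfrsf1b down to Birc3, and they did not overlap at the steps from Nfkb2 to Tnfrsf1b, Birc3 to Relb, Relb to Tnfaip3 and Tnfaip3 to Tnf. In non-responders Nfkb2 (63.1) stood above Nfkbia (62.3), and Nfkb1 (36.9) above Tnfrsf1b (33.9), but both pairs overlapped in each group. Per length, the receptor Tnfrsf1a therefore exceeded Tnfrsf1b in every tumor, by a Tnfrsf1b to Tnfrsf1a ratio of between 0.408 and 0.619, and the inhibitor Nfkbia exceeded Rela by between 1.43 and 2.67.

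Tumors differed in a shared way. Non-responder 1 had the lowest CPM of Tnf, Tnfrsf1b, Nfkbia and Birc3 and the highest of Nfkb1, Nfkb2 and Rela, and it also had the lowest leukocyte sum (641 CPM). Responder 5 had the highest Tnf, Tnfrsf1b, Tnfaip3 and Birc3 and the highest leukocyte sum (1536 CPM). Responder 6 had the lowest Nfkb2, Rela and Relb. Without non-responder 1 the log2 fold changes were 0.52 for Tnf, 0.22 for Tnfrsf1b, 0.18 for Nfkbia, 0.16 for Tnfaip3 and 0.12 for Birc3, and those of Nfkb1, Nfkb2 and Relb turned to 0.04, 0.05 and 0.03.

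**Figure D3:**
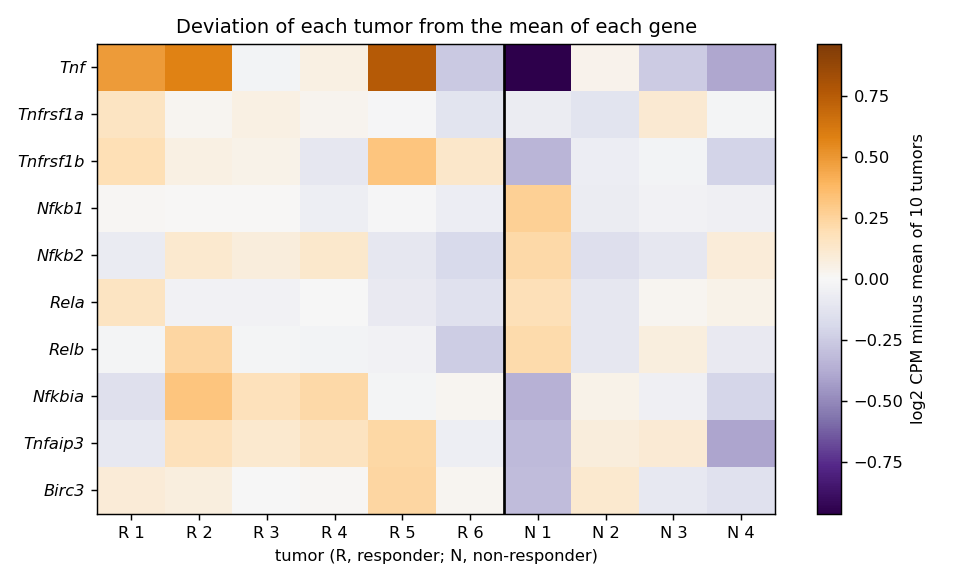
Log2 CPM of each gene (vertical) in each tumor (horizontal; R, responder, N, non-responder) minus the mean of that gene over the 10 tumors, by color. Tumor N 1 is low for Tnf, Tnfrsf1b, Nfkbia, Tnfaip3 and Birc3 and high for the 4 subunits, and R 5 is high for Tnf, Tnfrsf1b, Tnfaip3 and Birc3.

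Correlations within groups describe the same arrangement. They were taken over the 10 tumors on log2 CPM after each group was centered on its own mean, so they do not contain the difference between groups, but the tumors share library and cell content, and with 45 pairs of genes no p is given. The 4 subunits were positively correlated with each other in all pairs (r between 0.54 and 0.67). Tnf was most correlated with Birc3 (r = 0.86) and Tnfrsf1b (r = 0.68), Tnfrsf1b with Birc3 (r = 0.77), and Nfkbia with Tnfaip3 (r = 0.70). The most negative pair was Tnfrsf1b with Nfkb2 (r = -0.83).

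Among 13723 other genes with a mean of at least 1 CPM, the 3 most like each of the 10 by this measure were Rnaset2a (r = 0.97), Fut7 and Med7 for Tnf, and Cd3d (r = 0.99), a chain of the T cell receptor complex, Traf3ip3 and Ipcef1 for Tnfrsf1b. They were Ubl7 (r = 0.95), Ccdc174 and the lymphotoxin beta receptor Ltbr for Tnfrsf1a. For the subunits they were Anxa8 (r = 0.96), Dnaaf5 and Bahd1 for Nfkb1, Sf3a2 (r = 0.96), Fhl3 and Mid1ip1 for Nfkb2, Zswim1 (r = 0.95), Chchd4 and Tubg1 for Rela, and Sbno2 (r = 0.95), Flot1 and Nos3 for Relb. For the feedback genes they were Blvrb (r = 0.93), Lnpk and Zfand1 for Nfkbia, H60b (r = 0.95), Adam17, the protease that sheds TNF from the cell surface, and Gm10693 for Tnfaip3, and Klri2 (r = 0.97), ENSMUSG00000085603 and Mppe1 for Birc3. All of these are the 3 highest of 13723 values of r over only 10 tumors. The top of so many values can be high by chance alone, and no r was tested.

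Marker sums were compared with the 10 genes in the same way. The leukocyte sum had r = 0.83 with Tnf, 0.90 with Tnfrsf1b and 0.88 with Birc3, and the T cell sum had r = 0.97 with Tnfrsf1b. Nfkbia had r = 0.17 with the leukocyte sum, 0.001 with the macrophage sum and 0.55 with the NK cell sum, and Tnfrsf1a had 0.16 and -0.05 with the leukocyte and macrophage sums. All 4 subunits had negative r with the leukocyte and macrophage sums, and Nfkb2 had -0.65 with leukocytes and -0.70 with T cells. Other sums ran the other way for some of these genes. With the low colon carcinoma sum Nfkb2 had r = 0.73, Relb 0.55 and Nfkb1 0.21, but Rela had -0.08, and the inhibitor gene Nfkbia had 0.54. The fibroblast sum had r = 0.37 with Nfkb2, 0.60 with Nfkb1, -0.76 with Birc3 and -0.60 with Tnf. With Ptprc as a covariate, the log2 fold change was -0.08 for Tnf (95% interval -0.57 to 0.42), -0.0044 for Tnfrsf1b (-0.19 to 0.18), -0.09 for Birc3 (-0.23 to 0.06), -0.08 for Tnfaip3 (-0.36 to 0.20) and 0.13 for Nfkbia (-0.20 to 0.46), and that of Nfkb2 turned to 0.20 (-0.05 to 0.45). No gene of the 16041 passed the edgeR threshold in that fit, and 845 had an unadjusted p under 0.05. Since Ptprc did not overlap between the groups, response and leukocyte content cannot be told apart in these tumors.

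**Figure D4:**
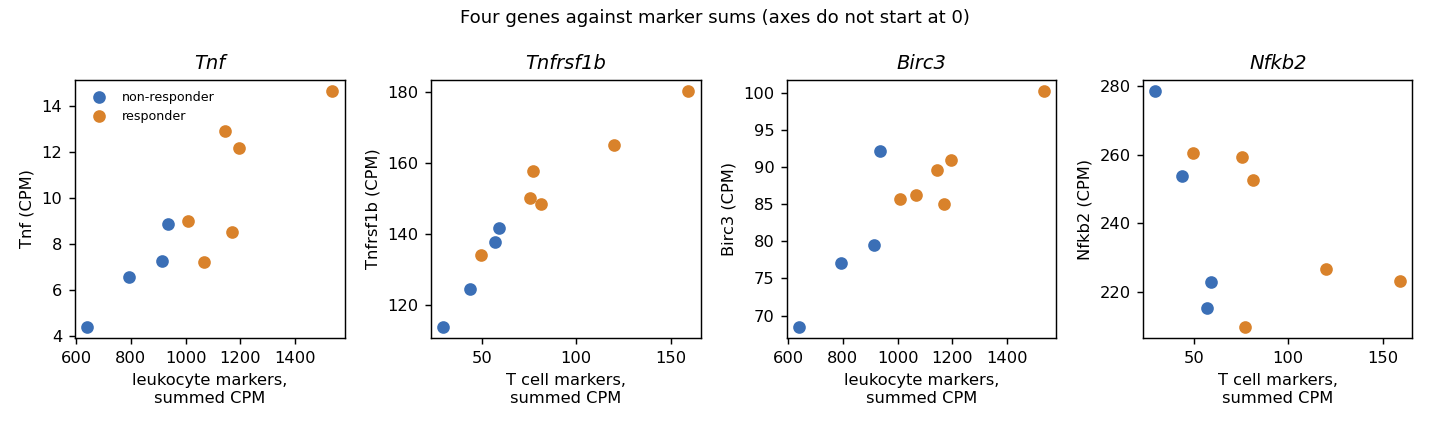
CPM of Tnf, Tnfrsf1b, Birc3 and Nfkb2 (vertical) against the summed CPM of leukocyte or T cell markers (horizontal) in each tumor; blue, non-responders, orange, responders. Axes do not start at 0. Tnf, Tnfrsf1b and Birc3 tend to be higher where the marker sum is higher, and Nfkb2 is lower in most tumors with high T cell markers. Among responders the order is not strict. Responder 3 (leukocyte sum 1170 CPM) has less Tnf (8.50 CPM) and Birc3 (85.0 CPM) than responder 4 (sum 1010 CPM, Tnf 9.01 CPM, Birc3 85.6 CPM).

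Other genes of the pathway were taken from a list of 48 ligands, receptors, adaptors, kinases and regulators, of which 46 could be tested (Cd40lg and Tnfrsf13c had at most 14 and 18 counts in a tumor). Of these, 6 passed the edgeR test, all higher in responders, which is 13.0% against 4.71% of all genes in that direction. Estimates lay above 0 for 38 of 46 (median log2 fold change 0.13), as they did for 7731 of 16041 genes tested. This list and the target list below were chosen with earlier results of these data known, and neither was tested as a set. Among 46 genes, 7 had responders entirely above non-responders, against 5.84% of all genes.

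The ligand Tnfsf13b, the B cell survival factor BAFF, was 3.50 ± 0.91 CPM in responders and 1.61 ± 0.59 CPM in non-responders (log2 fold change 1.12 with SE 0.27, adjusted p = 0.036 by edgeR). The receptor Tnfrsf11a, which encodes RANK, was 28.4 ± 3.73 and 20.3 ± 1.87 CPM (log2 fold change 0.48 with SE 0.10, adjusted p = 0.0291 by edgeR). Adam17 was 156.0 ± 7.0 and 134.6 ± 9.0 CPM (log2 fold change 0.21 with SE 0.05, adjusted p = 0.0372 by edgeR). In all 3 of these genes every responder lay above every non-responder.

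The kinase gene Ikbke, which encodes IKK epsilon, was 61.3 ± 8.88 and 43.3 ± 6.03 CPM (log2 fold change 0.50 with SE 0.12, adjusted p = 0.0341 by edgeR). The other two genes called act against the pathway: Cyld, a deubiquitinase that opposes NF-kB activation, had a log2 fold change of 0.26 (with SE 0.06, adjusted p = 0.033 by edgeR), and Zfp36, which encodes tristetraprolin, a protein that promotes decay of Tnf mRNA, one of 0.44 (with SE 0.11, adjusted p = 0.0371 by edgeR). The groups did not overlap for Ikbke and Cyld, and for Zfp36 all but 1 responder exceeded the non-responders. Neither catalytic IKK subunit gene passed. Ikbkb had a small higher estimate of 0.10 (with SE 0.04, 95% interval 0.003 to 0.20, adjusted p = 0.159 by edgeR). Chuk was level, at -0.01 (with SE 0.04, 95% interval -0.09 to 0.07, adjusted p = 0.899 by edgeR).

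All 6 kept their direction when each tumor was left out in turn, but each was called in only 2 to 5 of the 10 such fits. The number called in the list was 0 without responder 2, responder 3, non-responder 1 or non-responder 4, 1 without responder 5, 2 without responder 1 or non-responder 3, and 13 without non-responder 2. Over all genes, the first 4 of these fits called 244, 17, 16 and 0 genes. The fit without responder 5 called 412, those without responder 1 and non-responder 3 called 553 and 366, and that without non-responder 2 called 1897. With Ptprc as a covariate none was called, and the log2 fold changes were 0.38 for Tnfrsf11a, 0.33 for Tnfsf13b, 0.19 for Zfp36, 0.09 for Cyld and Adam17 and 0.07 for Ikbke.

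**Figure D5:**
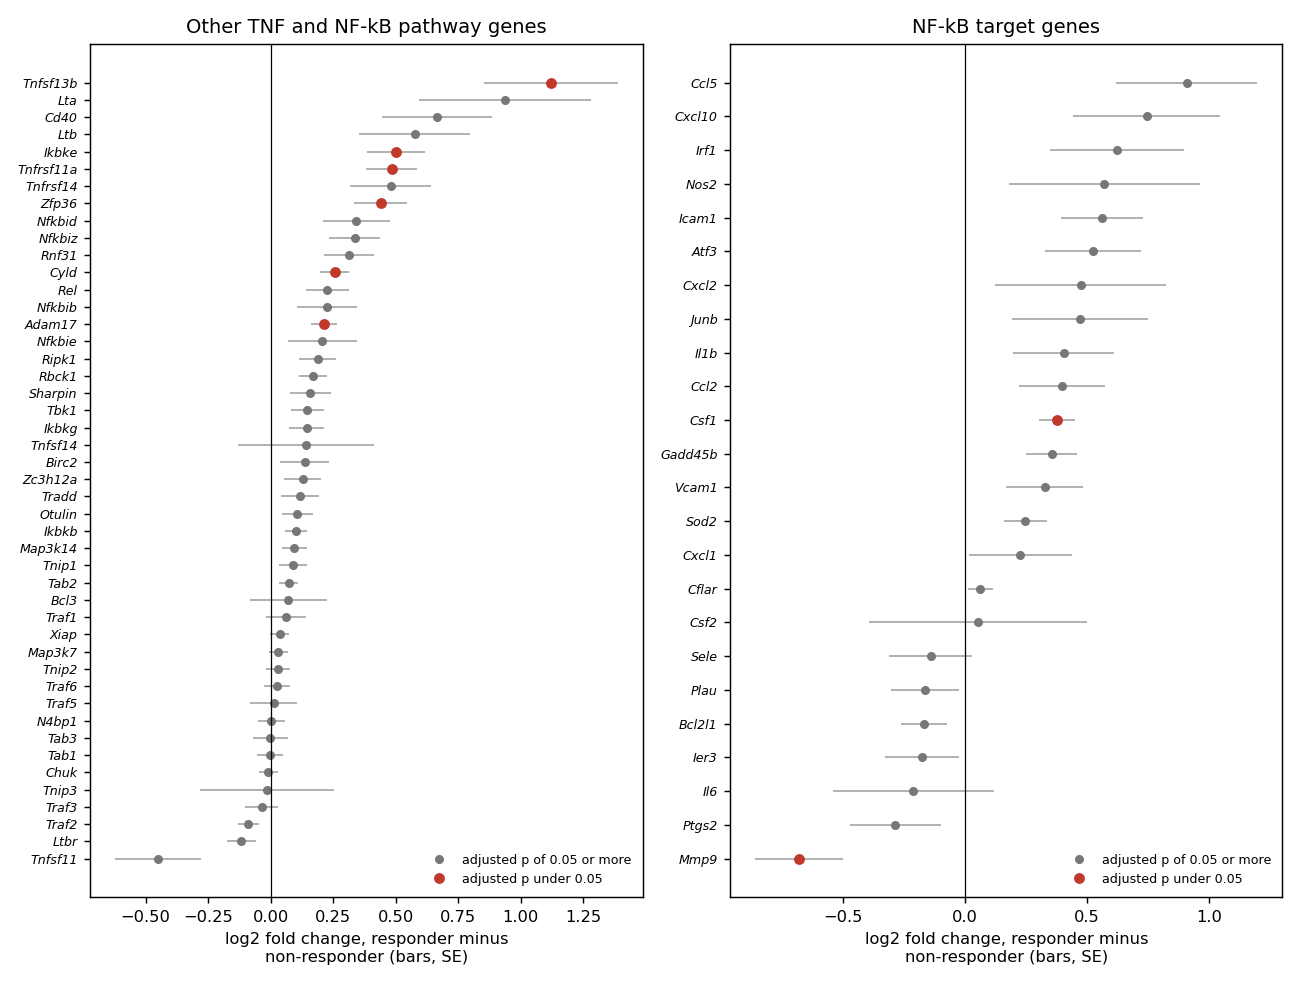
Log2 fold change (horizontal axis, responder minus non-responder; bars are the SE) of each tested gene of the pathway list (left, 46 genes) and of the target list (right, 24 genes), with genes past an edgeR adjusted p of 0.05 in red. The 6 called pathway genes lie right of 0, and of the 2 called targets Csf1 lies right and Mmp9 left.

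The 2 known NF-kB targets that passed the test went in opposite directions, though most estimates of the list lay above 0. Of 25 listed, 24 could be tested (Ccl20 had 0 counts in every tumor), and 2 passed (8.33%, against 8.06% of all genes). There were 17 estimates above 0 (median log2 fold change 0.34), against 7731 of all 16041 genes tested (median -0.01). At an unadjusted edgeR p under 0.05 the count was 10 of 24, with 9 higher and 1 lower. Of all genes, 15.6% reached that p with a higher estimate. At an adjusted p under 0.1 the count was 6 of 24 (25%), 5 of them higher, against 18.7% of all genes in either direction. Csf1, the growth factor of macrophages, was higher, at 473.6 ± 43.3 CPM in responders and 365.0 ± 22.95 CPM in non-responders (log2 fold change 0.38 with SE 0.07, adjusted p = 0.0264 by edgeR). The gelatinase gene Mmp9 was lower, at 167.3 ± 32.7 and 268.2 ± 71.9 CPM (log2 fold change -0.68 with SE 0.18, adjusted p = 0.0443 by edgeR). The groups did not overlap in either gene, though the nearest tumors were close, with Csf1 at 398.7 and 396.5 CPM and Mmp9 at 203.0 and 203.8 CPM. The next by p did not pass: Gadd45b had a log2 fold change of 0.36 (adjusted p = 0.0572 by edgeR), the adhesion gene Icam1 0.56 (adjusted p = 0.0596 by edgeR) and the chemokine gene Ccl5 0.91 (adjusted p = 0.0695 by edgeR). The number of targets called was 0 without responder 2, responder 3, non-responder 1, non-responder 3 or non-responder 4, 1 without responder 5 or responder 6, and 3 without responder 4 or non-responder 2. Over all genes, in the same order, these fits called 244, 17, 16, 366 and 0 genes, then 412 and 735, then 1619 and 1897. Both Csf1 and Mmp9 kept their direction in all 10 of these fits, with Csf1 called in 5 and Mmp9 in 2. With Ptprc as a covariate neither was called, and the log2 fold changes were 0.19 for Csf1 and -0.16 for Mmp9.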

How the data were processed

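PolyA RNA-seq was available for 10 CT26 tumors (6 responders, 4 non-responders by the response label). The authors estimated transcript abundance with kallisto and summed it to genes on GRCm38 (mm10). The values the authors deposited are estimated counts of each gene, not scaled to depth, and 44.8% of the values were fractional (by more than 1e-06). The annotation release, strand setting and summing option are not given in the sources used here. Genes without a symbol (9633) kept their identifier.

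Counts were rounded and tested in R 4.3.3 with edgeR 4.0.16 (filterByExpr, minimum count 10 and minimum total 15, TMM, quasi-likelihood test, two-sided, Benjamini-Hochberg over 16041 genes, threshold 0.05). Each SE was obtained as the absolute log2 fold change over the root of the F statistic. CPM is scaled by TMM; logs used a prior of 2 counts. The precision of each value is limited by the number of tumors, since depth was 23374649 to 38042544 counts. The 5 log2 ratios of counts (pseudocount 0.5) were tested by exact permutation over 210 splits, which can give a p no smaller than 0.00476. Alternatives were DESeq2 1.42.0, limma 3.58.1 (voom with quality weights), RLE scaling, no filter, Ptprc as a covariate, an adjusted p of 0.1, a ratio pseudocount of 1 and leaving out each tumor. Coordinates are from a GENCODE annotation of GRCm38.

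The members, lists and tests were chosen with earlier results of these data known. The text names all 10 members, every pathway and target gene past the threshold, the 5 targets of smallest p, and for each member the 3 genes most correlated with it. It also names Rel, Birc2, Ikbkb and Chuk of the pathway list, which did not pass. The p-values set the difference between the groups against the spread between these tumors.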

Additional observations from a re-analysis of the deposited data

Results flagged for a closer look

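In 30 groups (10 genes and 5 ratios in 2 groups each), Dixon's test set a single tumor apart from its group in 2, and chance gives about 1.5. Nfkb1 in non-responder 1 was 178.4 CPM, against 141.0 to 145.0 CPM in the other non-responders, a gap of 0.893 of the range of the group. The log2 ratio of Nfkb2 to Nfkb1 in non-responder 4 was 0.83, against 0.61 to 0.64 in the others, a gap of 0.849 of the range.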

How the results depend on the processing

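Over all genes, 1293 were called by edgeR, 2573 by DESeq2, 685 by limma voom, 2999 at an adjusted p under 0.1, 0 with Ptprc as a covariate, and between 0 and 1897 when a tumor was left out (0 without non-responder 4, 16 without non-responder 1, 17 without responder 3). Of the 10 genes, 0 were called by edgeR, 2 by DESeq2, 2 at an adjusted p under 0.1 and between 0 and 1 when a tumor was left out. The pathway list had 6 called by edgeR, 11 by DESeq2, 3 by voom, 11 at 0.1, 0 with Ptprc and between 0 and 13 when a tumor was left out, and the target list had 2, 6, 1, 6, 0 and between 0 and 3. With Ptprc, log2 fold changes turned to -0.0761 for Tnf, -0.0044 for Tnfrsf1b, 0.0812 for Nfkb1, 0.199 for Nfkb2, 0.0733 for Rela, 0.0521 for Relb, -0.0767 for Tnfaip3 and -0.085 for Birc3. By voom, Nfkb2 turned to 0.0183. Leaving out a tumor gave -0.0885 to 0.0357 for Nfkb1, -0.0754 to 0.0541 for Nfkb2, -0.0948 to 0.0332 for Relb, -0.0049 to 0.0791 for the difference in the log2 ratio of Nfkb2 to Nfkb1, -0.0349 to 0.0543 for that of Relb to Rela, and 0.18 to 0.41 for that of Nfkbia to Rela. In all, 132 of 150 alternative values of the 10 genes kept their direction and side of the threshold, 4 crossed it and 14 turned; the cause was not tested. RLE scaling and no filter changed no call of the 10 genes. No paired analysis was possible because the tumor numbers follow the order of the samples and do not tie tumors of the groups together. Depth limits Tnf most, at 109 to 523 counts a tumor.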
